A study of Mus musculus with 12 samples.

Results

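In mouse B cells stimulated in vivo, 445 CpGs were at least 70% methylated in undivided cells and at most 20% methylated in CD138-positive cells that had divided 8 or more times, in each of 2 host mice. CpGs that had already fallen by at least 25 points after 5 divisions in both hosts were left out, so the rule keeps CpGs with a near-complete and mostly late loss. The 445 CpGs are 0.0585% of the 760348 CpGs that had 10 or more reads in each of 12 libraries, and 0.109% of the 409261 CpGs with at least 70% methylation in undivided cells of both hosts. A further 299 CpGs met the same limits but had fallen by division 5, and are called the early-losing CpGs below. The CpGs were thus chosen by their measured levels at divisions 0 and 5 and in CD138-positive cells. Those levels are given as a description, and tests are confined to the fractions the rule did not use.

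Splenic B cells (B220-positive, CD43-negative) from naive 8-week-old female mice were labelled with CFSE or CTV, dyes whose brightness records the number of divisions, and transferred into μMT hosts, whose own B cell development is arrested so that mature B cells are lacking. The series text gives the donors as C57/BL6J, and the strain label of the samples reads B6.SJL-Ptprca Pepcb/BoyJ. All cells, undivided ones included, came from hosts challenged with lipopolysaccharide (LPS), and were sorted from the spleen on day 3. Undivided cells (Div0) and those at division 1, 3 or 5 (Div1, Div3 and Div5) were taken, and cells with 8 or more divisions were split into CD138-negative (Div8neg) and CD138-positive (Div8pos). Hosts 196 and 197 each gave all 6 fractions, so a fraction has 2 replicates from separate hosts.

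In vertebrate DNA most CpGs carry a methyl group on the cytosine, which is copied to the new strand after replication by the maintenance methyltransferase. Methylation is lost when this copying fails over successive divisions or when the methyl group is oxidised and removed, and losses at enhancers and promoters accompany lineage commitment. LPS drives B cells to divide and to become plasmablasts, antibody-secreting cells that display CD138 (syndecan-1) and depend on the transcription factor Blimp-1, encoded by Prdm1.

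Reduced representation bisulfite sequencing, which reads short restriction fragments rich in CpGs, gave methylated and unmethylated read counts for each CpG. Coverage of the 445 CpGs had a median of 21 to 52 reads in the host 196 libraries and 40 to 66 reads in the host 197 libraries. Counting error alone at a single CpG was gauged by Wilson 95% intervals at the median depth and near the median Div8neg level. The interval ran from 28.3 to 67.6% for 10 of 21 reads in host 196. For 17 of 40 reads in host 197 it ran from 28.5 to 57.8%. These are not intervals of the medians over the 445 CpGs. No expression was measured in these libraries, so the sorted identities could not be set against marker transcripts. The deposited nearest gene is used as a CpG's name, coordinates are those of mm9, and a level is an average over all alleles and cells in the DNA, so that partial loss in every cell and full loss in some cells cannot be told apart.

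The CpGs were highly methylated in the first divisions, and most of the difference from undivided cells was seen after division 5, a course that the limit on Div5 favours. Their median level in host 196 was 88% at Div0 and 88.5% at Div1, then 83.9% at Div3 and 75% at Div5, and at last 46.2% at Div8neg and 10.8% at Div8pos. In host 197 the medians were 88.1% at Div0 and 86.4% at Div1, then 82.8% at Div3 and 69.6% at Div5, and at last 43.2% at Div8neg and 10.4% at Div8pos. In both hosts the median at Div8neg lay between those at Div5 and Div8pos. Across the CpGs, Div8neg was below Div5 in both hosts at 398 of 445 and above Div8pos in both hosts at 439, a direction that the limits on Div5 and Div8pos favour. Of the loss between Div1 and Div8pos, a median of 54.2% was present at Div8neg (interquartile range 39.0 to 66.6%). A drop of at least 25 points at Div5 was present in 1 host only at 174 of the CpGs.

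**Figure D1:**
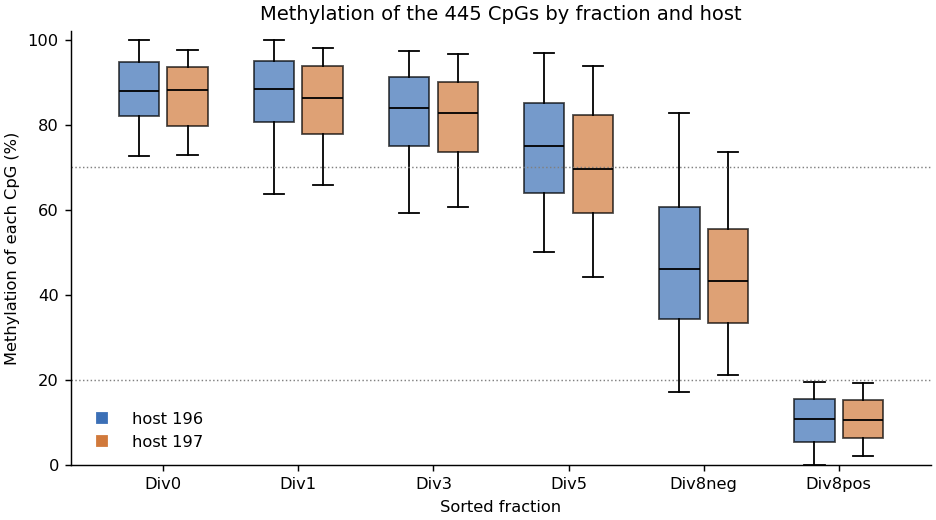
Methylation in percent (y axis) of the 445 CpGs in the 6 sorted fractions (x axis), for host 196 and host 197. Boxes span the quartiles with the median as a line, whiskers reach the 5th and 95th percentiles, and dotted lines mark the limits of 70 and 20% that chose the CpGs; the Div8neg boxes, with medians of 46.2% and 43.2%, lie apart from those of both neighbouring fractions of the same host.

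CD138-negative cells after 8 or more divisions were compared with cells after 1 division, neither of which the rule used. Methylation was lower at Div8neg at 330 of the 445 CpGs (74.2%), against 0.671% of all CpGs tested and 0.919% of the other CpGs with at least 70% at Div0 in both hosts. The rule itself favours such an excess, here and against Div3 below, since it chose CpGs with a large drop from Div0 to Div8pos. That drop had a median of -77.2 points at the 445 and -8.10 points at those other CpGs. Of the early-losing CpGs, chosen by the same 2 limits, 94% were lower. A CpG counts as lower where the adjusted p of a quasi-binomial test over all CpGs was under 0.05 and the host means differed by at least 20 points. The test used the same dispersion for every CpG, so the host spread at a single CpG does not enter its p. Of the 445, 0 were higher, against 0.0264% of all CpGs, and 0 were higher without adjustment at p under 0.05, against 2.11%. edgeR likewise called 0 higher, against 0.00684% of all CpGs, and it called 250 lower, against 0.265%. With a dispersion estimated from each CpG alone, on 6 residual degrees of freedom, 3 of the 445 were lower, against 0.00145% of all CpGs. The median difference was -39.9 points, with -38.3 in host 196 and -40.1 in host 197, while it was -3.55 points over the other CpGs with at least 70% at Div0. Levels were lower at Div8neg in both hosts at 429 of 445 CpGs (96.4%), against 45.5% of the other CpGs with at least 70% at Div0, and higher in both hosts at 0, against 6.44%. Without the Div8neg library of host 197 the count was 166, and without the Div1 library of host 197 it was 142, where each time the remaining library has the shallower coverage of host 196.

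Between Div3 and Div1 the differences were small and did not pass the test. The quasi-binomial test called 0 of 445 lower and 0 higher, against 0.00881% lower and 0.000395% higher among all CpGs tested, with 51 lower and 4 higher at an unadjusted p under 0.05. Those counts are 11.5% and 0.899% of the 445, against 3.26% lower and 2.79% higher of all CpGs. edgeR also called 0 in either direction, against 0.000789% lower and 0% higher of all CpGs. Before adjustment it had 31 lower (6.97%) and 3 higher (0.674%), against 1.76% lower and 1.47% higher of all CpGs. The median difference was -3.83 points, and the level was lower at Div3 in both hosts at 212 CpGs and higher in both at 42. These are 47.6% and 9.44% of the 445, against 24.8% and 18.0% of the other CpGs with at least 70% at Div0 in both hosts. The early-losing CpGs differed by a median of -15.4 points in the same comparison, and 28 of the 299 (9.36%) were lower, although their choice by a low Div5 level favours a lower Div3. Leaving them out in turn favours a small difference at Div3 among the 445.

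Div8neg against Div3 gave 318 lower CpGs of the 445 (71.5%), against 0.588% of all CpGs. It gave 0 higher ones, against 0.0172% of all CpGs. At an unadjusted p under 0.05 it gave 0 higher, against 2.13%, and edgeR gave 0, against 0.00513%. The median difference was -35.6 points, so most of the difference from Div1 was present between Div3 and Div8neg. Without the Div8neg library of host 197, 117 CpGs were lower. At the early-losing CpGs, 207 of 299 (69.2%) were lower at Div8neg than at Div3 and 281 of 299 (94%) were lower than at Div1. Their Div8neg medians were 25% in host 196 and 24.2% in host 197, below those of the 445 CpGs.

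The level reached without CD138 varied widely among CpGs that all ended at or below 20% with it. At Div8neg the mean of the hosts spanned 6 to 89.0%, with 291 CpGs (65.4%) between 30 and 60%. In both hosts, 10 CpGs were at or below 20% at Div8neg and 29 were at or above 70%. The 115 CpGs that did not pass against Div1 had a Div8neg median of 59.6% and a median of 114 reads in the 4 libraries compared. The 330 that passed had a Div8neg median of 40.6% and 149 reads. The 20-point limit itself favours a lower Div8neg level among those that passed. Of these 115, 114 were lower at Div8neg by some amount and 56 by at least 20 points. Across the 445 CpGs the Div8neg levels of the hosts had a Pearson r of 0.67, which is a description only, since neighbouring CpGs share reads.

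**Figure D2:**
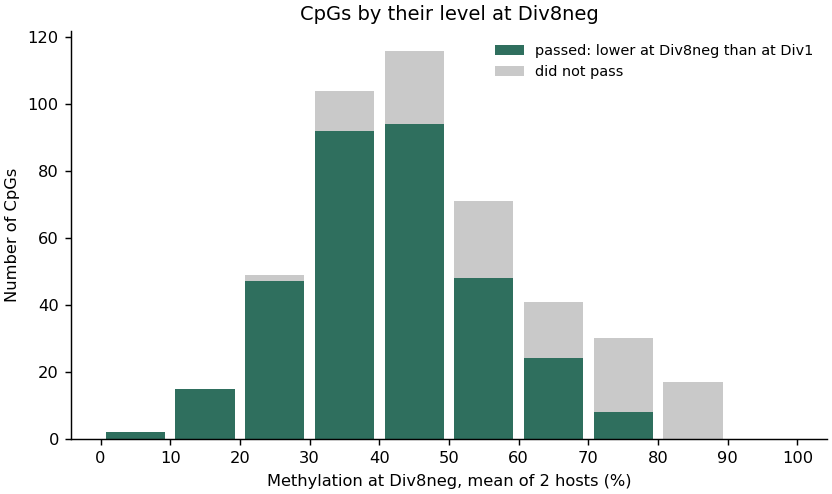
Number of CpGs (y axis) in each 10-point step of the Div8neg level, mean of the 2 hosts in percent (x axis), stacked by whether the CpG was lower at Div8neg than at Div1. Of the 116 CpGs between 40 and 50%, 94 passed, and of the 17 between 80 and 90%, 0 passed.

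The 8 CpGs with the lowest Div8neg means were picked by that level. This choice favours large differences from Div1 and small p-values. The lowest lay in an intron of Tnfrsf13b, which encodes TACI, the receptor of plasma cells and activated B cells for the survival factors BAFF and APRIL (chromosome 11, 60942928). It had 63.2% and 60% at Div1, 72.4% and 61.5% at Div3, 0 of 21 reads and 12% at Div8neg, and 0 of 38 reads and 6.90% at Div8pos in hosts 196 and 197. The 0 of 21 reads allows a level of up to 14.3%, and 0 of 38 reads one of up to 7.89%. An intronic CpG of Rab30, a GTPase of the Golgi (chromosome 7, 99969628), had 10.0% and 15.8% at Div8neg and 88.2% and 80% at Div1. Both Div8neg values were far below both Div1 values (difference -71.2 points, adjusted p = 9.73e-08). A CpG 2122 bp upstream of a start site of Elmo1, a regulator of Rac and of the actin cytoskeleton, had 14.3% and 15.4% at Div8neg and 90% and 82.8% at Div1 (difference -71.5 points, adjusted p = 4.14e-15). The others were assigned to Pvt1, Fam169b, Ypel2, Fcgr2b and Rpl13a, with Div8neg levels between 5.56 and 21.2% in the separate hosts.

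At the other end, the 8 CpGs with the highest Div8neg means lay close to their Div1 level and were low at Div8pos. Their choice by a high Div8neg level favours a small difference from Div1, and the rule set the low Div8pos level. They were at Ube2v1 and Fam49b, near Gfpt1, in Filip1 and in an intergenic stretch of chromosome 10 with no gene symbol. The intronic CpG of Filip1, a filamin-interacting protein (chromosome 9, 79669132), had 91.3% and 80.6% at Div8neg, 94.7% and 80% at Div1, and 6.90% and 12.5% at Div8pos. Its Div8neg and Div1 values overlapped (difference -1.39 points, adjusted p = 0.980). The other 7 differed from Div1 by -12.3 to -6.54 points, short of the 20-point limit, though 2 of them had an adjusted p under 0.05.

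The 445 CpGs formed 319 clusters when members at most 500 bp apart were joined. Of these, 242 were single CpGs, 45 were pairs and 32 held at least 3 CpGs. Adjacent CpGs of a cluster can lie on the same reads, so they are not separate measurements. Neighbours within a cluster differed at Div8neg by a median of 9.47 points over 126 adjacent pairs. The median range within the 77 clusters of 2 or more CpGs was 13.4 points.

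The largest cluster held 6 CpGs in 260 bp between Atg5, an autophagy gene, and Prdm1 (chr10:44120496-44120755, mm9). The start site nearest to it is that of the microRNA gene Mir1929, 41013 to 41272 bp away, and the files give 5 of its CpGs the symbol Prdm1. All 6 covered CpGs of that stretch were members. In host 196 the cluster averaged 92.7% at Div0 and 94.8% at Div1, then 95.8% at Div3 and 91.7% at Div5, and at last 57.2% at Div8neg and 5.03% at Div8pos. In host 197 it averaged 96.0% at Div0 and 97.1% at Div1, then 95.3% at Div3 and 91.6% at Div5, and at last 56.3% at Div8neg and 3.55% at Div8pos. The cluster was at 91.6% or above in every fraction up to division 5, and the hosts differed by less than 1 point at Div8neg. Div8neg was below Div1 by 39.2 points (SD 2.29, n = 2 hosts), and all 6 CpGs passed. The 6 CpGs spread at Div8neg from 41.8 to 71.4% in the mean of the hosts. A pair of further members assigned to Prdm1 lay 201440 and 205201 bp upstream of its start site, and 1 of them passed.

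The intronic cluster of Tnfrsf13b (chr11:60942754-60942928), 2496 to 2670 bp downstream of the start site, had 4 members. Its means were 18.5% and 27.3% at Div8neg and 83.2% and 80.5% at Div1, in hosts 196 and 197. At Div5 it still had 79.9% and 67.4%, and at Div8pos it had 8.98% and 12%. All 4 CpGs passed, and Div8neg and Div8pos lay closer together here, at a difference of -12.3 points, than in the cluster near Prdm1, at -52.5 points. The difference between the clusters was not tested.

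Pvt1, a long noncoding RNA gene beside Myc, held 8 members in 3 clusters, more than any other gene. Its largest cluster lay in an intron (chr15:61976566-61976956) and showed the widest range of all clusters at Div8neg, 74.2 points. The CpG at 61976931 had 10.5% and 6.25% at Div8neg and 87.1% and 68.5% at Div1 (adjusted p = 1.60e-10). The CpG at 61976566, in the same cluster, had 100% and 65.2% at Div8neg on 11 and 23 reads and 100% in both hosts at Div1 (difference -17.4 points, adjusted p = 0.0650). All 5 CpGs were at or below 6.25% at Div8pos in either host. Cluster means at Div8neg were 60.8% in host 196 and 48.0% in host 197, a gap that leaves both below the Div1 means of 92.0% and 90.2%.

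**Figure D3:**
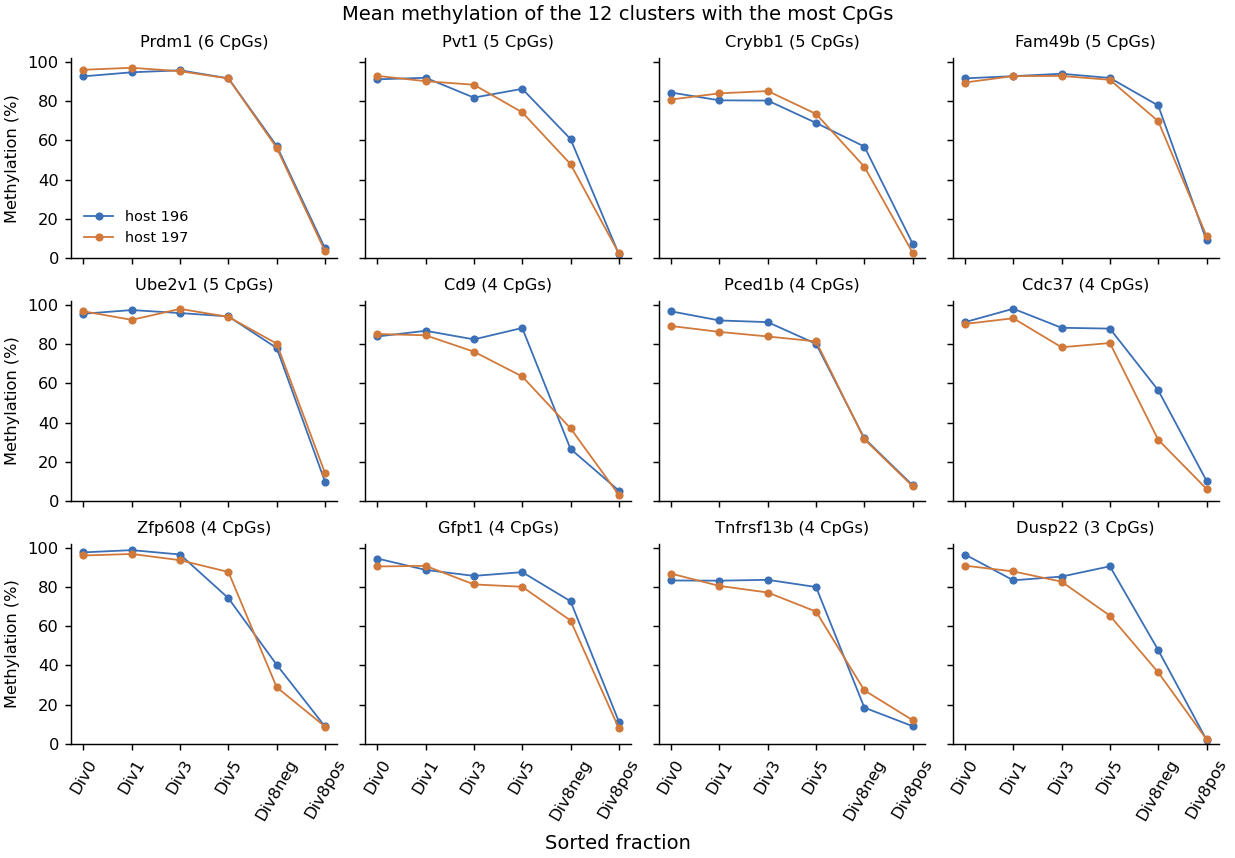
Mean methylation in percent (y axis) of the members of the 12 clusters with the most CpGs, in the 6 sorted fractions (x axis), with a line for each host. All 12 clusters lie between 2.08 and 14.3% at Div8pos, while at Div8neg they range from 18.5% at Tnfrsf13b in host 196 to 80.2% at Ube2v1 in host 197.

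In a group of clusters most of the loss between Div1 and Div8pos was not present at Div8neg. Ube2v1, a ubiquitin-conjugating enzyme variant that helps to build signalling ubiquitin chains, had 5 members 1635 to 1673 bp upstream of its start site (chr2:167459141-167459179). They averaged 78.0% and 80.2% at Div8neg, 97.3% and 92.3% at Div1, and 9.86% and 14.3% at Div8pos in hosts 196 and 197. Div8neg was below Div1 in both hosts, by 15.7 points on average (SD 5.12, n = 2), yet 0 of the 5 CpGs passed, with adjusted p between 0.0573 and 0.381. Against Div3, 2 of the 5 passed. The 5 CpGs assigned to Fam49b, in a 3′ UTR annotated to Cyrib, another name in use for this Rac-interacting regulator of actin (chr15:63762167-63762298), averaged 77.8% and 69.9% at Div8neg and 92.8% in both hosts at Div1. Of them 2 passed. The 4 CpGs assigned to Gfpt1, the rate-limiting enzyme of the hexosamine pathway that supplies sugars for protein glycosylation (chr6:87043577-87043738), averaged 72.7% and 62.8% at Div8neg and 88.6% and 90.7% at Div1, and 2 passed. The cluster at Crybb1, a lens crystallin gene whose nearest start site belongs to Tpst2, averaged 56.9% and 46.6% at Div8neg, and 4 of 5 members passed. The share of the loss present at Div8neg was 19.0% at Ube2v1, 23.0% at Fam49b, 27.4% at Gfpt1 and 39.5% at Crybb1. It was 41.4% at the Pvt1 cluster and 42.7% at the cluster near Prdm1.

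In other clusters most of the loss between Div1 and Div8pos was present at Div8neg, from 52.1% at Dusp22 to 82.7% at Tnfrsf13b. Those in introns of Pced1b (chr15:97210391-97210567) and in the last part of Cd9, a tetraspanin of the B cell surface (chr6:125410633-125410897), had 4 members each, and all 8 CpGs passed. The Pced1b cluster averaged 31.9% and 31.5% at Div8neg and 92.0% and 86.2% at Div1. The Cd9 cluster averaged 26.5% and 37.1% at Div8neg and 86.8% and 84.5% at Div1. An intergenic cluster nearest to Zfp608, a zinc finger gene on chromosome 18, had the largest difference of the 12, -63.2 points (SD 6.71, n = 2), with 40.3% and 28.8% at Div8neg and 98.7% and 96.8% at Div1. An intergenic cluster assigned to Cdc37, a co-chaperone of protein kinases, had 56.5% at Div8neg in host 196 and 31.2% in host 197, the widest gap between hosts among the 12, against 98.0% and 93.1% at Div1. The cluster in an intron of the phosphatase gene Dusp22 averaged 47.8% and 36.4% at Div8neg, and all 3 members passed.

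The deposited promoter annotation held 34 of the CpGs. It is described as running 2500 bp upstream to 500 bp downstream of a start site, but of all covered CpGs it marked 95.3% of those in the upstream stretch and 21.4% of those in the downstream one, measured from the nearest start. It is therefore mainly an upstream class. Fcgr2b, the inhibitory Fc receptor of B cells, had members 38 and 69 bp upstream of its start site on chromosome 1. The CpG at 172906717 had 11.1% and 17.1% at Div8neg and 70.6% and 74.3% at Div1 (adjusted p = 7.69e-06). The CpG at 172906748 had 47.1% and 28.6% at Div8neg and 82.4% and 68.6% at Div1 (adjusted p = 0.0270). Both passed, and at neither did the Div8neg and Div1 values overlap.

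Susd3, a membrane protein gene, had members 648 and 656 bp upstream of its start site, with 42.1% to 55.6% at Div8neg and 95.7% to 100% at Div1, and both passed. Zmynd8, a chromatin reader, had members marked as promoter although they lay 642 and 657 bp downstream of its nearest listed start, with 27.3 to 42.4% at Div8neg and 67.9 to 94.5% at Div1, and both passed. Rpl13a, a ribosomal protein gene whose nearest listed start is that of the small nucleolar RNA Snord33, had 11.5 to 24% at Div8neg and 68.0 to 83.8% at Div1 at its 2 members, and both passed. Apobec1, an enzyme that edits messenger RNA, had 2 members in its annotated 5′ UTR (chromosome 6, 122541189 and 122541234). They had 53.5 to 75% at Div8neg and 83.3 to 100% at Div1, and both passed at smaller differences, -27.6 and -32.8 points.

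A member lay within 50 kb of a start site and carried the symbol of 224 of 18695 genes (1.20%). The start site need not be that of the gene named: at 105 of the 445 CpGs the symbol belonged to a gene other than that of the nearest start, or the nearest start had no gene ID. Of the plasma cell list, 6 of 28 genes with a covered CpG did so, with 16 members, of which 12 were lower at Div8neg than at Div1. Over all 445 CpGs, 330 (74.2%) were lower, and the counts of passing members in this list and those below stand beside that share. The 5 at Prdm1 are those of the cluster nearest to the start of Mir1929, and the other 11 lay nearest to a start of their own gene. Besides Prdm1 and Tnfrsf13b these were Sub1, a transcriptional coactivator (2 of 3 members passed), Creld2, an endoplasmic reticulum stress gene (1 of 1), Zbtb20, a transcription factor of long-lived plasma cells (0 of 2), and Il10, an anti-inflammatory cytokine gene (0 of 1). The Creld2 CpG, 2018 bp downstream of the start site (chromosome 15, 88652095), had 77.8% and 45% at Div8neg, 96.6% and 94.9% at Div1, and 1.61% and 5.08% at Div8pos. The hosts differed at Div8neg there, and both stayed below Div1 (adjusted p = 3.17e-06). The Il10 CpG, 8931 bp upstream (chromosome 1, 132907490), had 80% and 53.3% at Div8neg and 85.7% and 95% at Div1 (adjusted p = 0.138), with 0 of 29 reads, a level of up to 10.3%, and 10.5% at Div8pos.

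Genes of protein folding and secretion held 3 members at 3 of 35 genes, and all 3 passed, as did 74.2% of the 445. Canx, the chaperone calnexin, had a member 6850 bp upstream with 44.0% and 31.0% at Div8neg and 100% and 95.7% at Div1. Spcs2, a signal peptidase subunit, had an intronic one with 33.3% and 36.9% at Div8neg and 85.4% and 84.7% at Div1. With the Rab30 CpG above, the 3 had differences from Div1 between -71.2 and -49.9 points.

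B cell identity genes held members at 2 of 33. The intronic CpG of Ciita, the coactivator of class II antigen presentation genes, had 36.7% and 37.7% at Div8neg and 93.8% and 74.4% at Div1. That of Lyn, a kinase of the B cell receptor, had 28.6% and 46.9% at Div8neg and 88.0% and 78.9% at Div1, and both passed. Cell cycle genes held members at 2 of 34, the proliferation marker Mki67 and the tumour suppressor Rb1, and all 3 CpGs passed. Most of the 445 CpGs passed (74.2%), so these counts do not set either list apart. The 2 intronic members of Mki67 had 41.2 to 60% at Div8neg and 81.0 to 94.5% at Div1.

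The remaining lists held 1 or 2 genes with members, or 0. Of the Toll-like receptor and NF-kB list (2 of 34 genes), the CpG in Nfkbiz, an inducible nuclear IkB protein, passed, with 25% and 40.6% at Div8neg and 81.2% and 91.7% at Div1. The one near Tnfaip3, a brake on NF-kB, had 66.7% and 69.6% at Div8neg and 100% and 91.3% at Div1 (adjusted p = 0.139). The migration list (2 of 16) had Cxcr5, the follicle homing receptor, and S1pr1, the receptor for exit from lymphoid organs, and both passed. The S1pr1 CpG had 10.0% on 10 reads and 46.5% on 43 reads at Div8neg, and 100% and 91.4% at Div1. Of the cytokine and receptor list (2 of 36), Tnfrsf13c, the BAFF receptor, passed, with 41.7% and 35.5% at Div8neg and 75.8% and 70.6% at Div1. Il6ra, the interleukin-6 receptor, had 61.9% and 60.6% at Div8neg and 58.3% and 89.7% at Div1, values that overlap (adjusted p = 0.386). Of the DNA methylation list (2 of 23), Apobec1 is described above, and Zbtb38, a methyl-CpG-binding protein, had 1 member 50 bp downstream of its start site that passed. The T cell list had Tcf7 (1 of 21), and the myeloid (18 genes) and NK cell (6 genes) lists had 0.

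Introns held 234 of the CpGs (52.6%), against 38.1% of all CpGs with at least 70% at Div0 in both hosts. The promoter annotation held 7.64% against 3.93%, and by distance alone the upstream stretch of 2500 bp held 7.87% against 3.92% and the downstream stretch of 500 bp 0.899% against 1.47%. The shares were 8.76% against 15.2% for exons, and 35.7% against 46.6% lay outside all annotated classes. The median distance to a start site was 13087 bp against 24151 bp, and 41.8% against 29.4% lay within 10 kb. The early-losing CpGs were placed much alike, with 51.8% in introns, 6.02% in promoters and a median distance of 12746 bp. Chromosome 10 held 44 of the CpGs (9.89%) and 5.63% of those with at least 70% at Div0, but 3.68% of the early-losing CpGs. Chromosome 15 held 34 of the CpGs (7.64%), against 4.53% of those with at least 70% at Div0. These shares are descriptions without a test, since neighbouring CpGs are not independent.

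**Figure D4:**
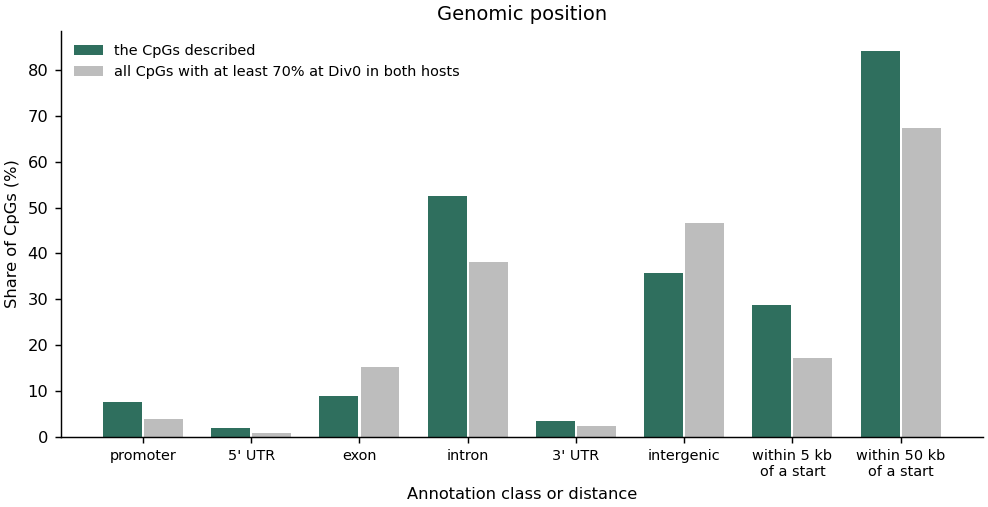
Share of CpGs in percent (y axis) by annotation class and by distance to a transcription start site (x axis), for the 445 CpGs (left bars) and for all CpGs with at least 70% at Div0 in both hosts (right bars). A CpG can be in several classes; introns hold 52.6% against 38.1% and the stretch within 50 kb of a start 84.3% against 67.4%.

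The level at Div8neg is given by position without a test. Its median was 40.5% at the 34 promoter CpGs, 42.3% at the 234 intronic CpGs and 45.8% at the 159 intergenic CpGs. By distance, it was 36.8% within 1 kb of a start site (23 CpGs) and 50.0% beyond 50 kb (70 CpGs). The share lower at Div8neg than at Div1 lay between 73.3 and 78.3% in all 5 distance classes, and was 61.8% in promoters.

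The loss extended to CpGs within 500 bp of the members. Other CpGs with at least 70% at Div0 that lay 1 to 50 bp from a member differed between Div8neg and Div1 by a mean of -31.0 points (144 CpGs; -29.9 in host 196 and -32.2 in host 197). The mean was -19.8 points at 101 to 200 bp, -17.0 at 201 to 500 bp, -8.33 at 501 to 1000 bp and -4.44 beyond 20 kb. Leaving out the early-losing CpGs, the mean was -24.7 points at 1 to 50 bp, -16.5 at 101 to 200 bp, -13.5 at 201 to 500 bp and -6.85 at 501 to 1000 bp. With them kept, the medians were smaller: -16.0 points at 101 to 200 bp, -12.2 at 201 to 500 bp, -2.76 at 501 to 1000 bp and -3.54 beyond 20 kb. Over the same distances Div8pos minus Div0 was -64.4 points at 1 to 50 bp, -34.7 at 201 to 500 bp and -9.81 beyond 20 kb. CpGs within a read length of 50 bp can share reads with a member, so the nearest class is not a separate measurement, whereas those over 200 bp away lie on other reads. Within 500 bp, 398 of the 445 had another covered CpG.

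**Figure D5:**
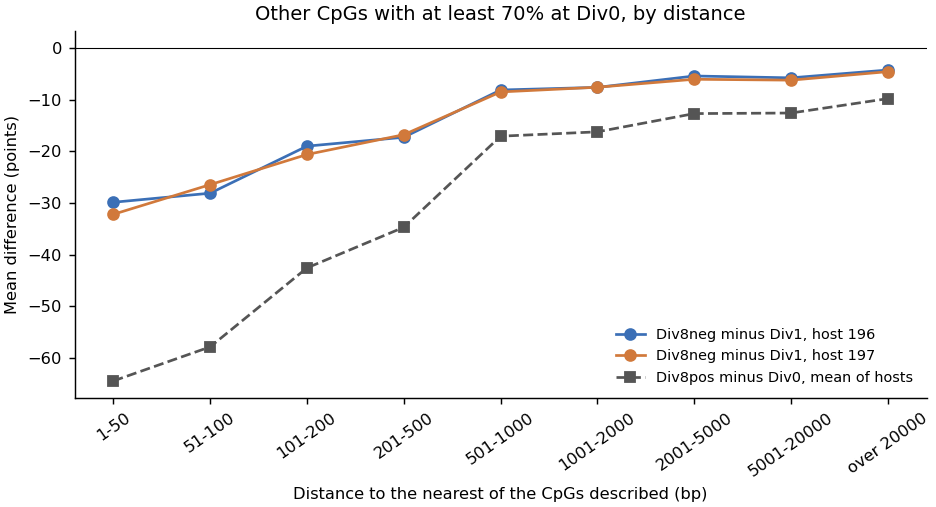
Mean difference in methylation in points (y axis) of other CpGs with at least 70% at Div0 in both hosts, by distance in bp to the nearest of the 445 CpGs (x axis). Both host lines for Div8neg minus Div1 lie between -32.2 and -16.8 points up to 500 bp and between -8.52 and -4.28 points farther away, and Div8pos minus Div0 follows the same course at larger size.

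The hosts were also read against each other. The rule applied in host 196 alone chose 732 CpGs, whose median in host 197, which had no part in that choice, was 85.1% at Div0 and 18.0% at Div8pos. Of these, 57.8% were at or below 20% at Div8pos in host 197. The rule applied in host 197 alone chose 554 CpGs, with medians in host 196 of 87.5% at Div0 and 15.4% at Div8pos and 69.0% at or below 20%. In the host not used, Div8pos was at least 20 points below Div0 at 95.2% of the CpGs chosen in host 196 and 98.7% of those chosen in host 197. For comparison, 11.5% of other CpGs with at least 70% at Div0 in both hosts, over 20 kb from any member, had such a drop. That share is not split by host. Over all CpGs with at least 70% at Div0 in both hosts, the Div8pos median was 88.2% in host 196 and 87.4% in host 197. The share of them at or below 20% at Div8pos was not computed.

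At Div8neg the median absolute difference between hosts at a single CpG was 9.75 points. Counting alone gives such a difference a standard error with a median of 12.6 points, and the spread between animals was not separated from it. The 6 CpGs with the widest host gaps included those at Bmp2k, a kinase (58.3% of 12 reads in host 196 and 11.1% of 18 in host 197), and Fndc3b (100% of 17 reads and 59.1% of 44). They also included Scaf11, a splicing-related factor (93.3% and 50.0%), Zbtb38 (64.3% and 23.1%), Crybb1 (84.6% and 44.4%) and Rps6kb1, the S6 kinase (80% and 40%). Host 196 was higher at all 6, and 3 of them, Bmp2k, Zbtb38 and Crybb1, were lower at Div8neg than at Div1 by the test.

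The limit of 20% cuts through a continuous range. The 5 members nearest to it, at Ptpn1, Rap1gap, Rapgef1, Hist1h2ba and a site on chromosome 17 without a symbol, had a Div8pos level of 20.0% in 1 host and between 4 and 19.7% in the other. The 5 CpGs just outside, at Mtmr3, A630001G21Rik, Socs2, F830002L21Rik and Rpl13, had 20.2 to 20.4% in host 197 and 11.8 to 19.4% in host 196. Levels at Div8neg were 26.9 to 60.7% at the 5 inside and 27.8 to 74.4% at the 5 outside, ranges that overlap in the fraction that the rule did not use.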

How the data were processed

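The submitters' processing notes name Bismark, Bowtie2 and the mm9 build, without versions. The deposited table gives counts of methylated and unmethylated reads per CpG and sample, and the authors' methylation fraction, which equalled methylated over all reads to within 5.6e-16, per the file headers. Libraries had 17969105 to 56775157 reads summed over CpGs, started from 20 ng of DNA and were read as 50 bp single ends; reads are not independent molecules, since no molecular identifiers were used, and intervals cover counting error only. No library was a copy of another, since coverage differed beyond sampling noise in each pair (chi-square per degree of freedom at least 1.197).

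Percentages were computed from the counts. Each CpG was tested by a quasi-binomial logistic model with fraction as the term over all 12 libraries, with a dispersion shared by squeezeVar of limma 3.58.1 (R 4.3.3, value 1.16), Benjamini-Hochberg adjustment over 760348 CpGs, and limits of 0.05 and 20 points; it was tested on simulated data. The prior degrees of freedom were infinite, so every CpG had the same dispersion and its own host spread did not enter its p. Alternatives included edgeR 4.0.16 on the counts, a host block, other limits, coverage of at least 20 and leaving out each library. Replicates are separate host animals, and fractions of a host come from the same animal per the labels, so host pairs the samples; host deviations of different fractions correlated by -0.0052 to 0.0121 over 15 pairs of fractions. Zero levels carry the limit of 3 reads. The text names the 12 clusters with the most members, the 6 genes with the most promoter or 5′ UTR members, the 8 lowest and 8 highest CpGs at Div8neg, every list gene holding a member, the 5 CpGs on each side of the Div8pos limit, and the 6 CpGs with the widest host gap. The members, the gene lists and these rules were chosen with earlier results of these data known. Gene lists were matched by the symbols in the files. CpG strands had been joined, apart from a few positions 1 bp apart.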

Additional observations from a re-analysis of the deposited data

Results flagged for a closer look

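A larger deposited table, not used for the comparisons above, holds 879250 further CpGs. Of these, 508 lay within 500 bp of the almost fully demethylated CpGs, and 377 of them lay 51 to 500 bp away, beyond the length of a read. In summed reads the 377 CpGs were 34.7% and 33.1% methylated at Div8pos and 72.6% and 73.0% at Div0, in hosts 196 and 197, a difference of -38.9 points in the mean of the hosts. All 879250 further CpGs were at 56.3% and 56.6% at Div8pos and 68.0% and 67.0% at Div0. Between Div8neg and Div1 the 377 CpGs differed by -13.8 points in host 196 and -18.8 points in host 197, while all further CpGs differed by -6.42 and -6.54 points. The difference drew attention because it lies in data outside the main measurement and exceeds that of all further CpGs. These CpGs come from the same libraries as those by which the 445 were chosen, so they are no separate experiment. Many of them had few reads in some library, so they are given as sums. The sum over all further CpGs varied between libraries, with 58.2% in host 196 and 64.3% in host 197 at Div3.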

How the results depend on the processing

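For Div8neg against Div1, the count of lower CpGs stayed within 1.5 times of 330 in edgeR (250), with the host as a replicate block (319), with only the 4 libraries compared (336) and with size limits of 10 points or none (339 each). It was 127 of 148 CpGs at a coverage of at least 20 reads, where fewer CpGs were tested, against 0.798% of all CpGs at that coverage. With each CpG's own dispersion it was 3. There 392 (88.1%) were lower at an unadjusted p under 0.05, against 8.34% of all CpGs. Leaving out a library, where the lone library of its fraction is assumed to vary like the others, gave 142 to 295. For Div8neg against Div3 the corresponding counts were 225, 305 with the block, 320, 328 and 328, then 125 of 148 and 3, and 117 to 273 with a library left out, against 318. For Div3 against Div1 the count was 1 with size limits of 10 points or none and 0 otherwise, the block included, and 0 with any library left out. The block moved the counts as given above, and its calls at single CpGs are not given. The number of CpGs meeting the rule was 259 with Div8pos at most 15%, 625 with at most 25%, 298 with Div0 at least 80%, 744 with the early-losing CpGs kept, 148 at a coverage of at least 20, 732 in host 196 alone and 554 in host 197 alone. The median difference between Div8neg and Div1 was -40.1 in host 197, -38.3 in host 196 and between -40.1 and -39.3 points with reads summed, higher coverage or 1 value per cluster. Clusters numbered 344 with a gap of 100 bp and 316 with 2000 bp. The named clusters kept their direction in either host. Depth limits single CpGs: in host 196 most rest on about 20 reads. The spread at a single CpG has 6 residual degrees of freedom, and the main test used the shared dispersion in its place.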
